A study of Mus musculus with 18 samples.

Results

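The comparison was of livers from mice on a high-fat diet (HFD) with livers from mice on a normal diet (ND). It covered all genes detected on every array of at least 1 liver diet. The arrays were chosen by their labelled diet and tissue, which gave 3 HFD and 3 ND liver arrays out of 18 arrays in the series. The animals were male C57BL/6J mice (the strain field of the labels reads C56BL/6J) that arrived at 4 weeks of age, spent an acclimation period on a semi-purified diet and then ate their group's diet for 16 weeks. The HFD held 20% fat and 1% cholesterol, so the 2 diets differed in cholesterol as well as in fat. What the ND was made of, the fasting state and the hour of death are not given in the labels, and no genotype was changed. The other 12 arrays covered HFD with the flavonoid luteolin (LU) in liver and all 3 diets in epididymal fat. The LU livers entered the normalization, the detection filter, the choice of probe and the estimate of the spread. Nothing in the labels ties the arrays of a diet to separate animals, so the p-values reflect the spread between these samples alone, and that spread may be technical.

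The liver takes up dietary fat and cholesterol and either stores them in droplets, exports them in lipoproteins or turns them into bile acids. Sterol synthesis is set by the transcription factor SREBP2, which is held inactive when membrane cholesterol is plentiful, whereas the liver X receptors (LXR) respond to oxidised sterols by raising sterol export and SREBP1. Hepatocytes also differ along the lobule, with some genes used next to the portal vein and others next to the central vein. Lipid overload is known to bring in macrophages and to activate the stellate cells that lay down collagen.

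Messenger RNA was measured on Illumina bead arrays, where each gene is read by 1 or more probes. Values below are log2 normalized signals, and a difference is HFD minus ND on that scale, ± the standard error (SE) of the limma fit with n = 3 arrays per diet. Levels are compared only within a probe. A gene was tested if every array of a liver diet, HFD, ND or LU, detected 1 of its probes at a detection p under 0.05, and it was called higher or lower at a Benjamini-Hochberg adjusted p under 0.05 over the 8937 genes tested. The HFD arrays detected 16520 to 16848 probes and the ND arrays 15464 to 15834 of 45281, with median signals of 158 to 160 on HFD arrays and 150 to 152 on ND arrays. The lowest correlation within a diet was 0.9949 for HFD and 0.9935 for ND, and the highest between diets was 0.9826. Hepatocyte markers summed to a log2 level of 18.47 to 18.50 on HFD arrays and 18.41 to 18.46 on ND arrays, with 12 of 15 measured and Tat and Fgb not detected. Markers are called not detected where no probe was detected on every array of HFD or on every array of ND.

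In HFD liver 1599 genes were higher (17.9% of those tested) and 1105 were lower (12.4%), while 6233 did not pass, so that 30.3% were called in either direction. The rises reached further than the decreases. More than 2-fold, 203 genes were higher (2.27%) and 59 lower (0.66%), and more than 4-fold these numbers were 28 and 7. In 23.8% of genes all 3 HFD arrays lay above all 3 ND arrays and in 20.9% they lay below, 44.7% in all. Of the higher genes, 138 were detected on all 3 HFD arrays and no ND array. Of the lower genes, 12 were detected on all 3 ND arrays and no HFD array. Called genes detected on fewer arrays of the other diet, such as Aqp7, are not in these counts. Without HFD array 2 the genes that were lower numbered 695, and when arrays were scaled by their medians, without quantile normalization, 2283 genes were higher and 547 lower, because that scaling put the median difference of all genes at 0.11.

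The largest rises among called genes were led by Gpnmb and Cidea. Gpnmb, a membrane glycoprotein of lipid-laden macrophages, had levels of 10.81, 11.66 and 11.47 on HFD arrays against 5.65, 6.11 and 5.52 on ND arrays. Cidea, a protein that fuses and enlarges lipid droplets, had 11.12, 11.50 and 10.76 on HFD arrays against 5.78, 5.22 and 5.88 on ND arrays, none of which detected it. For both genes every HFD array stood far above every ND array. The difference was 5.56 ± 0.24 for Gpnmb (adjusted p = 2.13e-06), although its other probe gave 0.96, and Cidea was at least 35.1-fold higher (adjusted p = 1.71e-06). The bound on Cidea sets its ND values at the lowest signal detected on each array, as for every fold given here as at least.

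Sdcbp2, which encodes the syntenin-related scaffold syntenin-2, had 8.43, 9.16 and 9.03 on HFD arrays against 5.37, 5.02 and 5.38 on ND arrays, where it was not detected. It was at least 7.38-fold higher (adjusted p = 4.15e-06, other probe 1.56). Ntrk2, the receptor of brain-derived neurotrophic factor, had 9.0, 8.81 and 8.58 on HFD arrays against 5.69, 5.04 and 6.41 on ND arrays, a difference of 3.08 ± 0.28 (adjusted p = 0.000127). The ND arrays of Ntrk2 spread more than its HFD arrays, and only 1 of them detected it. Tmem45b, a transmembrane protein gene, was even within each diet, with 7.91, 7.95 and 7.71 on HFD arrays against 4.96, 4.99 and 4.93 on ND arrays. It was detected on no ND array and was at least 3.64-fold higher (adjusted p = 4.77e-07). Ly6d, a GPI-anchored surface protein gene, had 10.02, 10.53 and 10.29 on HFD arrays against 7.76, 7.68 and 7.38 on ND arrays, a 6.36-fold difference (2.67 ± 0.14, other probe 2.50). Adam11, a member of the ADAM family without protease activity, rose by 2.67 ± 0.16, with 1.99 for its other probe. The neutrophil-associated protein Lcn2 (3.74 ± 0.25) and the collagenase Mmp13 (2.99 ± 0.23, detected on 1 ND array) rose as well.

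Xenobiotic genes made up 6 of the 15 largest rises. Cyp2b9, a cytochrome P450 used more in female than in male mouse liver, had 12.12, 13.02 and 11.98 on HFD arrays against 7.43, 9.35 and 7.01 on ND arrays (4.44 ± 0.55, adjusted p = 0.000569). Cyp2b23 had 9.41, 10.22 and 9.17 on HFD arrays against 5.0, 6.98 and 5.10 on ND arrays (3.90 ± 0.54). In both genes array 2 was the highest of its diet. Neither Cyp2b13 nor Cyp2b10 was detected on an ND array, and the bounds were at least 8.32-fold higher for Cyp2b13 and 7.76-fold for Cyp2b10. Gsta1 (3.98 ± 0.23, other probes 2.56 and 4.00) and Gsta2 (2.72 ± 0.28), glutathione transferases of the alpha class, were higher with no overlap of arrays. Members of the Cyp2b and Gsta families are nearly identical in sequence and a probe of 1 member may bind another's transcript, so the share of each member is uncertain.

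**Figure D1:**
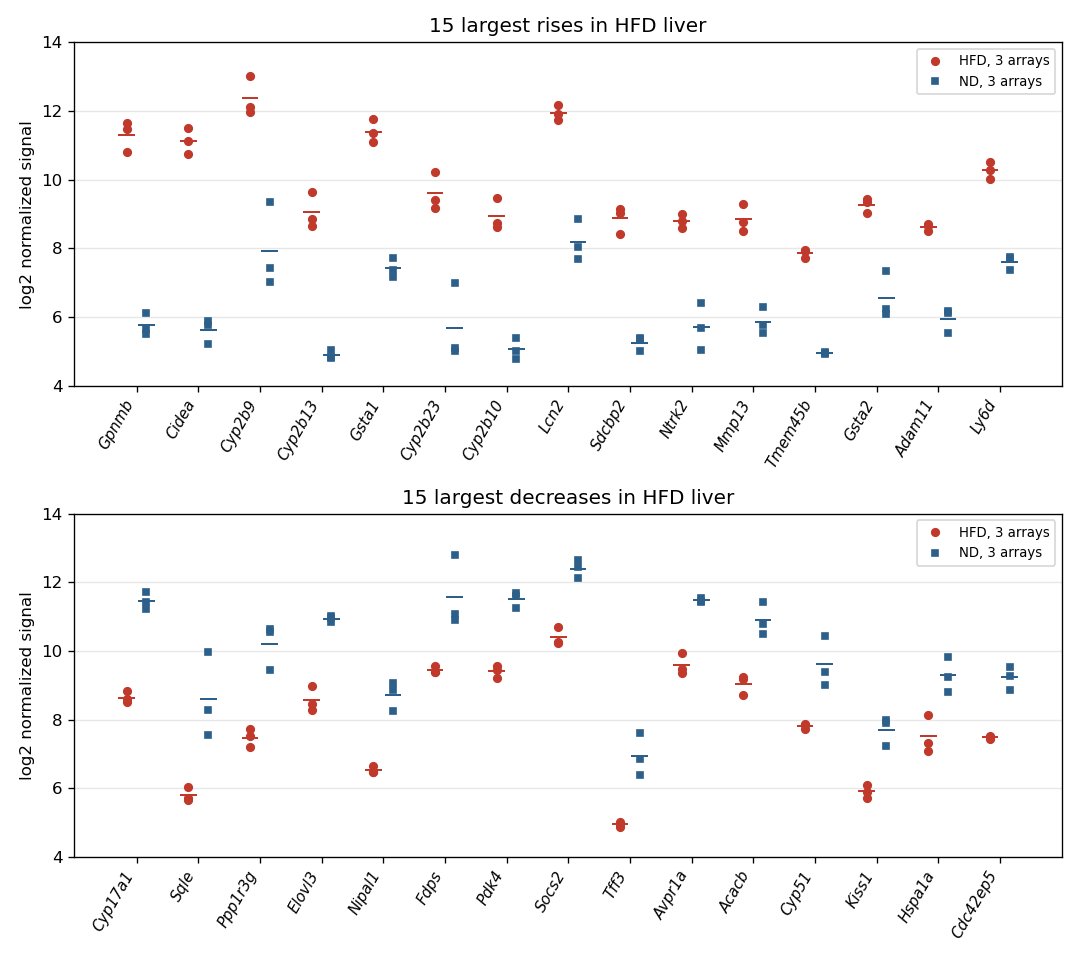
Log2 normalized signal on each array for the 15 genes with the largest rise (top) and the 15 with the largest decrease (bottom) among genes that passed the test with no overlap of arrays, HFD as circles left of ND as squares, with a line at each mean of 3 arrays. The ND arrays of Sqle, Cyp2b9 and Cyp2b23 are the most spread.

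The largest decreases among called genes were led by Cyp17a1. This gene of the 17-hydroxylase of steroid synthesis had 8.51, 8.83 and 8.59 on HFD arrays against 11.43, 11.73 and 11.22 on ND arrays, 7.04-fold lower (adjusted p = 7.79e-06). Pdk4, the kinase that shuts off pyruvate oxidation, had 9.56, 9.44 and 9.22 on HFD arrays against 11.25, 11.59 and 11.69 on ND arrays, 4.29-fold lower. Neither gene had overlapping arrays, and their spread within a diet was small beside the difference. Avpr1a, the hepatic vasopressin receptor, had 9.93, 9.37 and 9.47 on HFD arrays against 11.45, 11.42 and 11.54 on ND arrays (-1.88 ± 0.14, other probe -1.58). Kiss1, the gene of the peptide hormone kisspeptin, had 6.10, 5.72 and 5.90 on HFD arrays against 7.90, 7.23 and 7.98 on ND arrays (-1.80 ± 0.24), near the detection level in HFD. Tff3, the trefoil peptide of mucus-secreting epithelia, had 4.88, 4.97 and 5.01 on HFD arrays against 6.84, 7.60 and 6.38 on ND arrays. No HFD array detected Tff3, and it was at least 2.15-fold lower (adjusted p = 0.000582).

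Acacb, the mitochondrial acetyl-CoA carboxylase that restrains fatty acid oxidation, was 3.63-fold lower (-1.86 ± 0.25). Ppp1r3g, a subunit that directs protein phosphatase 1 to glycogen, was lower by its main probe (-2.74 ± 0.58, other probe -0.96). The very long chain elongase Elovl3 (-2.37 ± 0.22), the magnesium transporter family member Nipal1 (-2.20 ± 0.34), Cdc42ep5, an effector of the GTPase Cdc42 (-1.75 ± 0.15), and Socs2, a feedback inhibitor of growth hormone signalling (-2.0 ± 0.18), fell too. Hspa1a, an inducible heat shock chaperone, had 7.33, 7.09 and 8.13 on HFD arrays against 8.80, 9.25 and 9.81 on ND arrays (-1.77 ± 0.46, adjusted p = 0.0182). Its call ended when ND array 3, HFD array 1 or HFD array 2 was left out and with the trended, robust moderation (adjusted p up to 0.0641).

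Sterol synthesis had the largest share of lower genes among the lists. Of 20 enzymes listed from acetyl-CoA to cholesterol, 12 were measured, and 0 were higher, 10 lower and 2 did not pass, with a median difference of -0.95 beside 0.00 over all genes tested. Leaving out single arrays gave 8 to 11 lower. The other enzymes listed were not analysed here. Between the mevalonate steps and lanosterol, Fdps, the farnesyl diphosphate synthase, had 9.38, 9.55 and 9.39 on HFD arrays against 10.89, 11.07 and 12.79 on ND arrays (-2.14 ± 0.40, other probe -0.83). Sqle, the squalene epoxidase, had 5.66, 6.05 and 5.71 on HFD arrays, where 1 array detected it, against 7.54, 8.29 and 9.98 on ND arrays (-2.79 ± 0.49). In both genes ND array 3 was the highest by a wide margin and HFD arrays were close together. The phosphomevalonate kinase Pmvk was lower (-0.93 ± 0.19), whereas the lanosterol synthase Lss differed by -0.84 ± 0.30 and did not pass (adjusted p = 0.0618).

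After lanosterol, Cyp51, the lanosterol demethylase, had 7.83, 7.72 and 7.88 on HFD arrays against 9.02, 9.39 and 10.44 on ND arrays (-1.81 ± 0.29, adjusted p = 0.002). Hsd17b7, which reduces the sterol ketone at carbon 3, was the steadiest, with 11.64, 11.42 and 11.55 on HFD arrays against 12.59, 12.61 and 12.60 on ND arrays (-1.06 ± 0.09, adjusted p = 9.28e-05). Here ND array 3 was level with the others, unlike in Cyp51, Sqle and Fdps. The sterol reductases Tm7sf2 (-1.31 ± 0.11) and Dhcr7 (-0.74 ± 0.17) and the dehydrogenase Nsdhl (-0.97 ± 0.24) fell. The methyl oxidase Msmo1 (-0.74 ± 0.19) and the desaturase Sc5d (-0.51 ± 0.15) fell too. Msmo1 lost its call without ND array 2 or HFD array 2 (adjusted p up to 0.0529), and Sc5d without any HFD array, under median scaling and in a fit of the 6 HFD and ND arrays alone (adjusted p up to 0.088). Ebp, the sterol isomerase, had overlapping arrays, with 11.90, 11.70 and 11.73 on HFD arrays and 11.90, 11.74 and 11.99 on ND arrays.

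**Figure D2:**
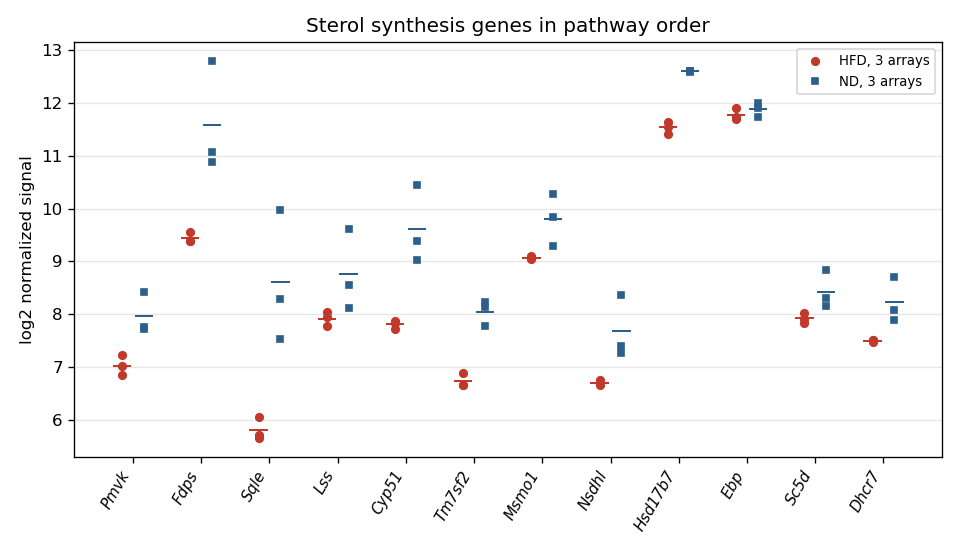
Log2 normalized signal on each array for the 12 measured enzymes of sterol synthesis in pathway order, HFD as circles left of ND as squares, with a line at each mean. HFD arrays lie below ND arrays in all but Ebp, and ND array 3 is the highest point in most of them.

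The promoters of these genes are shown because their transcripts moved together and because SREBP2 is known to act beside the factor NF-Y, which binds CCAAT boxes. In the RefSeq promoter table (build GRCm38.p6), 10 of the 12 measured genes had a sequence, Sqle and Fdps being absent from it. All 10 held CCAAT on either strand within 250 bases before a listed start, the 8 that were lower and the 2 that did not pass alike, as did 40.6% of the 7267 tested genes with a sequence and 37.5% of all 27025. The sterol response element searched as TCACNCCAC on either strand was in 0 of the 10 and in 1.32% of tested genes. A string this rare would be missing from most sets of 10 genes, and variants of it were not searched. The 0 therefore does not show that these promoters lack sterol response elements. A match is a run of letters and not a bound site, and some genes list several starts. The 100 bases before the single listed start are given on the gene's strand for the 6 lower genes that list a single start and hold a match there, with CCAAT or its reverse complement in capitals. The stretch of Cyp51 lies at chr5:4104698-4104797 (minus strand), Tm7sf2 at chr19:6067851-6067950 (minus), Msmo1 at chr8:64733579-64733678 (minus), Nsdhl at chrX:72918421-72918520 (plus), Hsd17b7 at chr1:169969206-169969305 (minus) and Sc5d at chr9:42264301-42264400 (minus), all upstream of the first exon.
Cyp51: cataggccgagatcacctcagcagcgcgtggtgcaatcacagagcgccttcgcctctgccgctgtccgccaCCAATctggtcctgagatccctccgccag
Tm7sf2: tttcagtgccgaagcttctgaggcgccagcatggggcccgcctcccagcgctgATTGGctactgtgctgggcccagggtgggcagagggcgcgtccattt
Msmo1: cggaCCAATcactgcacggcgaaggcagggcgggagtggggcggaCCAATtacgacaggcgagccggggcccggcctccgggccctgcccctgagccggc
Nsdhl: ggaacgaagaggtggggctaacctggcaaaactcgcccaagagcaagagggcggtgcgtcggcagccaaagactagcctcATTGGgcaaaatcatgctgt
Hsd17b7: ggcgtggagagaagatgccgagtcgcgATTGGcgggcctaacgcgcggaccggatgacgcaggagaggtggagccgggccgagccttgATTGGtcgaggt
Sc5d: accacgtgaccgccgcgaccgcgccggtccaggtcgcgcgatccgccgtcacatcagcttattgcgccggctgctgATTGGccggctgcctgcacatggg

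Genes of sterol uptake and SREBP2 control moved less evenly. Of 11 measured, 2 were higher, 3 lower and 6 did not pass (median -0.11), and without HFD array 3 only 1 was lower. Stard4, a carrier of cholesterol between membranes, had 8.62, 8.78 and 9.09 on HFD arrays against 9.70, 10.04 and 10.65 on ND arrays (-1.30 ± 0.22). Osbpl3, an oxysterol-binding protein relative at membrane contacts, went the other way, with 10.77, 10.86 and 10.74 on HFD arrays against 9.86, 9.45 and 9.21 on ND arrays (1.28 ± 0.16, other probe 1.03). The HDL receptor Scarb1 was higher (0.43 ± 0.07). Srebf2, the gene of SREBP2 itself, differed by -0.41 ± 0.12 (adjusted p = 0.0331) and lost this call without array 2 or 3 of either diet, under cyclic loess or median scaling and in a fit of the 6 arrays alone (adjusted p up to 0.161).

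LXR targets and sterol esterification genes had 6 of 12 measured higher, 2 lower and 4 not passing (median 0.14). Abcg5 and Abcg8, the partners of the transporter that sends sterols into bile, were both higher. Abcg5 had 14.16, 14.19 and 14.10 on HFD arrays against 12.58, 12.61 and 12.51 on ND arrays (1.58 ± 0.06, adjusted p = 1.65e-06), and Abcg8 had 13.53, 13.47 and 13.29 on HFD arrays against 11.99, 12.05 and 12.01 on ND arrays (1.41 ± 0.10). Arrays of the same diet lay close together in both genes and the diets did not overlap. The 2 genes are transcribed in opposite directions from starts 109 bases apart, and the stretch between these starts, chr17:84683012-84683120 in GRCm38.p6 on the strand of Abcg8, is shown because both transcripts rose by a like amount.
Abcg5 and Abcg8: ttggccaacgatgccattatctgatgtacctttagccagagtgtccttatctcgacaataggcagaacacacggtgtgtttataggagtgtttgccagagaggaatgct
Srebf1, which encodes SREBP1, was higher (1.30 ± 0.11), as were the sterol exporter Abcg1 (0.76 ± 0.14) and the carboxylesterase Ces1g (0.99 ± 0.14). The phospholipid transfer protein Pltp, also an LXR target, was lower, with 7.08, 7.55 and 7.5 on HFD arrays against 8.43, 8.16 and 8.06 on ND arrays (-0.84 ± 0.15).

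Of the genes of PPAR gamma and lipid storage, 9 of 17 measured were higher, 5 lower and 3 did not pass (median 0.28). Beside Cidea, Lpl, the lipoprotein lipase that is low in normal adult liver, had 13.09, 13.58 and 13.60 on HFD arrays against 11.26, 11.29 and 10.93 on ND arrays (2.26 ± 0.14). Vldlr, the receptor for very low density lipoprotein, was higher by all of its probes (1.35 ± 0.15, other probes 1.26 and 1.44), and Pparg itself rose by 0.69 ± 0.12. The droplet coat protein gene Plin4 was higher (1.57 ± 0.25). G0s2, an inhibitor of the triglyceride lipase of droplets, was lower, with 12.88, 12.92 and 12.62 on HFD arrays against 13.80, 13.87 and 13.74 on ND arrays (-1.0 ± 0.12). Defining adipocyte transcripts, Adipoq, Lep, Retn, Plin1 and Fabp4, were not detected. Of the 4 adipocyte markers that were measured 2 were higher, Plin4 and Car3. The 4 summed to 14.20 to 14.34 on HFD arrays against 13.34 to 13.59 on ND arrays. Most of this sum was the signal of Car3, with 13.66, 13.79 and 13.82 on HFD arrays against 12.96, 13.27 and 13.00 on ND arrays.

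Fatty acid elongation and desaturation genes had 2 of 13 measured higher and 5 lower (median -0.06). The elongase of polyunsaturated fatty acids Elovl2 was lower with Elovl3, at 9.89, 9.39 and 9.49 on HFD arrays against 10.77, 10.52 and 10.71 on ND arrays (-1.07 ± 0.14). The desaturases Fads2 (-0.65 ± 0.10, other probe -0.69) and Fads1 (-0.55 ± 0.12, other probe -0.94), which make arachidonic and docosahexaenoic acid precursors, were lower too. Elovl1, which extends saturated chains, was higher (0.44 ± 0.10). Among sphingolipid genes, 8 of 20 were higher and 1 lower (median 0.19), and the higher count was 4 to 8 when single arrays were left out, with 5 without ND array 2 or HFD array 2 and 4 without HFD array 3. Smpd3, a neutral sphingomyelinase, had 7.97, 8.27 and 7.89 on HFD arrays against 6.10, 5.94 and 5.83 on ND arrays, 1 of which detected it (2.09 ± 0.12). The alkaline ceramidase Acer2 rose by 0.88 ± 0.11 and the sphingosine kinase Sphk2 was lower (-0.55 ± 0.10, other probe -0.51). Peroxisomal genes had 1 of 25 higher and 5 lower, led by the carnitine acetyltransferase Crat (-0.79 ± 0.11), with 3 lower under median scaling.

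**Figure D3:**
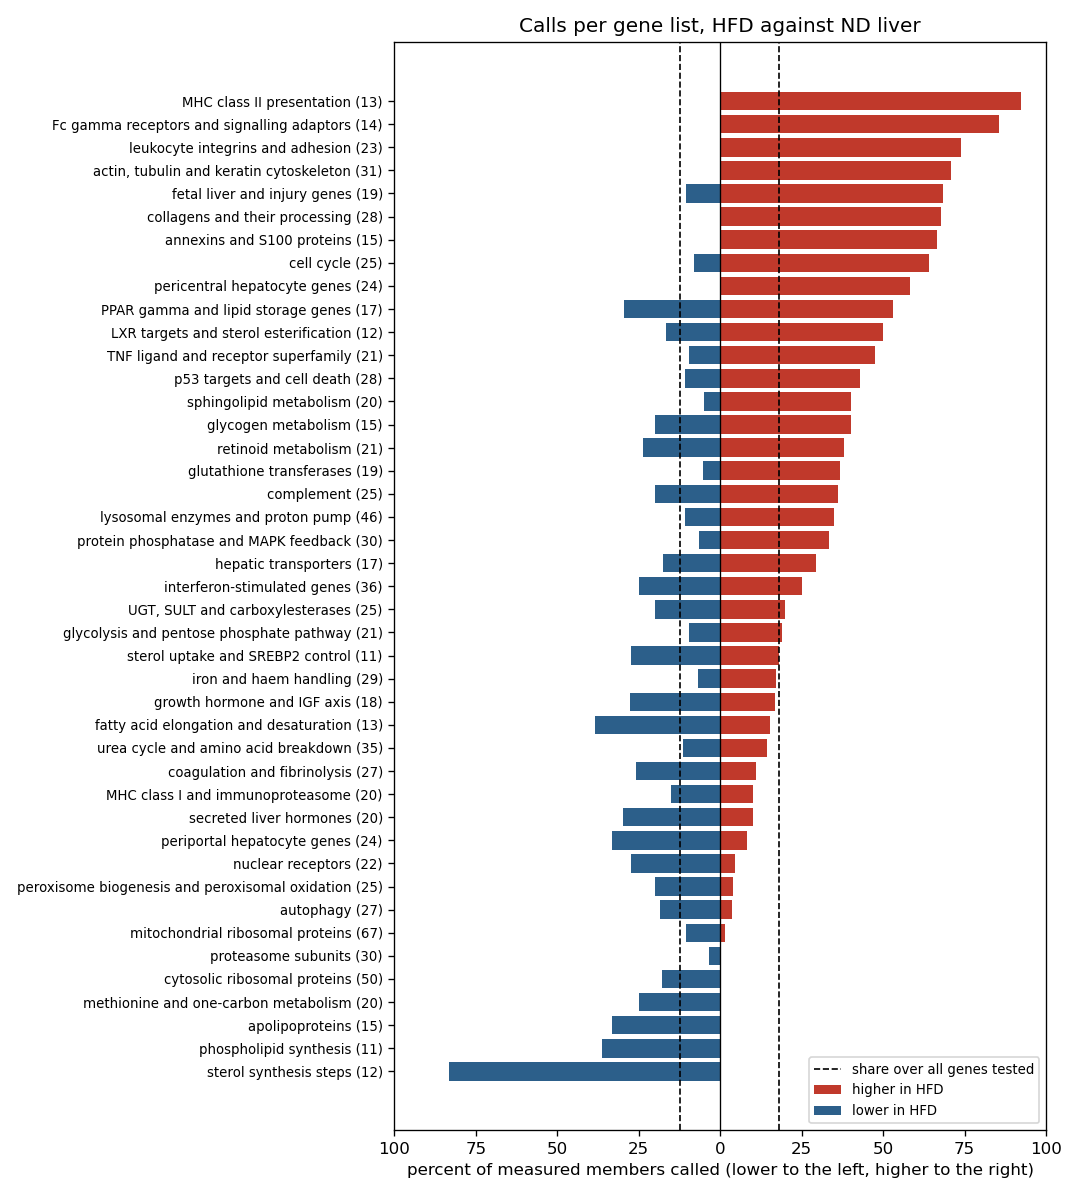
Percent of the measured members of each of 43 gene lists that were higher (to the right) or lower (to the left) in HFD than in ND liver, with the number measured in parentheses. Dashed lines mark the shares over all genes tested, 17.9% higher and 12.4% lower. MHC class II presentation has the largest share higher and sterol synthesis the largest share lower.

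Of 13 measured genes of MHC class II presentation 12 were higher and 0 lower (median 0.80), also with every array left out in turn. H2-Ab1, a chain of the class II molecule, had 12.57, 12.90 and 12.67 on HFD arrays against 11.79, 11.90 and 11.77 on ND arrays (0.90 ± 0.10). The invariant chain Cd74 (0.96 ± 0.11, other probes 0.99 and 0.94), H2-Eb1 (0.93 ± 0.10) and H2-Aa (1.10 ± 0.15) rose by a like amount, as did Ciita, the coactivator that switches class II genes on (0.93 ± 0.14, detected on 1 ND array). The gene that did not pass was the protease Ctss, named here after its value was seen. Of 20 genes of MHC class I and the immunoproteasome 2 were higher and 3 lower (median -0.03), with H2-Q7 lower (-0.59 ± 0.08) and H2-M3 higher (0.44 ± 0.11). Interferon-stimulated genes had 9 of 36 higher and 9 lower (median 0.01, below that of all genes under cyclic loess and median scaling). The chemokines Cxcl9 (0.80 ± 0.16) and Cxcl10 (0.78 ± 0.13) and the GTPase Gbp2 (0.79 ± 0.12) were among the higher ones.

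Fc gamma receptors and their adaptors had 12 of 14 measured higher and 0 lower (median 0.64). Clec7a, the receptor for fungal beta-glucan, had 8.53, 9.24 and 8.92 on HFD arrays against 7.12, 7.65 and 7.06 on ND arrays (1.62 ± 0.22, other probe 1.18). Sirpa, which receives the signal not to engulf, rose by 1.07 ± 0.12 and the adaptor Fcer1g by 0.88 ± 0.13. Leukocyte integrins and adhesion genes had 17 of 23 higher and 0 lower (median 0.63), with the actin-binding Coro1a (1.0 ± 0.09, other probes 0.60, 0.87 and 0.51), the lymphocyte surface peptide Cd52 (0.97 ± 0.12) and Selp, the P-selectin of activated endothelium (0.85 ± 0.13). Complement genes had 9 of 25 higher and 5 lower (median 0.06, below that of all genes under median scaling), with 5 higher without HFD array 3. C1qb, made by macrophages, was higher (0.68 ± 0.12), whereas C8b, made by hepatocytes, had 11.78, 11.39 and 12.23 on HFD arrays against 13.11, 13.38 and 12.91 on ND arrays (-1.33 ± 0.20).

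The marker lists of macrophages, stellate cells and endothelium had most measured members higher in HFD beside these lists, against 17.9% of all genes tested. Those of lymphocytes, bile ducts and erythrocytes had 0 higher. Each of these had only 2 to 4 measured members, too few to tell from that share. The part of any cell type in the results was not tested. The marker lists share members with the gene lists, such as Tyrobp, Laptm5 and Cd63. In bulk tissue more cells of a type and more transcript per cell cannot be told apart. Macrophage and monocyte markers had 12 of 13 measured higher and 0 lower (median 0.68) and summed to 13.77 to 13.98 on HFD arrays against 13.02 to 13.15 on ND arrays. Cx3cr1, the fractalkine receptor of monocyte-derived cells, had 7.34, 7.97 and 7.72 on HFD arrays against 6.17, 6.22 and 6.20 on ND arrays (1.48 ± 0.15), while Ccr2, Itgam, Itgax, Spi1 and Cybb had probes that were not detected. Markers of lipid-associated macrophages had 7 of 10 higher and 0 lower (median 1.51) and summed to 15.30 to 15.51 on HFD arrays against 14.59 to 14.80 on ND arrays. Among the 6 of these detected on all 9 liver arrays at detection p under 0.01, 4 were higher and 0 lower, and Trem2, Gpnmb and Mmp12 were tested through their HFD arrays. Trem2, their lipid receptor, had 7.53, 8.43 and 8.10 on HFD arrays against 5.48, 6.33 and 5.63 on ND arrays (2.20 ± 0.28), and the elastase Mmp12 was at least 1.71-fold higher. Markers of Kupffer cells, the resident macrophages, had 2 of 9 higher and 1 lower (median 0.28), and up to 5 higher under other settings such as leaving out LU array 1. T and NK cell markers had 0 of 4 measured higher and 0 lower and B and plasma cell markers 0 of 2 and 0, and Cd3e, Cd4, Jchain and Mzb1 were not detected. Neutrophil and mast cell markers had 2 of 5 higher, S100a8 (at least 2.19-fold) and S100a9 (at least 1.15-fold, detected on 2 HFD arrays), neither detected on an ND array. Retnlg, Cpa3, Cma1 and Mcpt4 were not detected, and the 1 marker detected on all 9 arrays at detection p under 0.01 did not pass. Of 4 measured markers each, erythrocytes had 0 higher and 0 lower and the exocrine pancreas 0 higher and 1 lower.

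Genes of the matrix, the cytoskeleton and the annexin and S100 families rose with few or no members lower. Collagens and their processing had 19 of 28 measured higher and 0 lower (median 0.68). Col1a1, the main chain of fibrous collagen, had 8.18, 9.29 and 8.24 on HFD arrays against 6.16, 5.83 and 6.15 on ND arrays (2.52 ± 0.30). HFD array 2 was the highest in Col1a1 and also in Col6a1, with 9.09, 10.06 and 9.36 on HFD arrays against 8.5, 8.51 and 8.37 on ND arrays (1.05 ± 0.21). The matricellular genes Sparc (0.96 ± 0.16), Thbs2 (1.09 ± 0.16) and Tnc (at least 1.52-fold) were higher. Stellate cell markers, beside these, had 6 of 9 higher and 0 lower (median 0.42), 2 higher without ND array 2 or HFD array 2, and summed to 14.74 to 14.86 on HFD arrays against 14.36 to 14.49 on ND arrays. Endothelium markers had 11 of 17 higher and 0 lower (median 0.33), with 7 without HFD array 1 and 6 without HFD array 2, and summed to 14.92 to 15 on HFD arrays against 14.53 to 14.67 on ND arrays, with Plvap of fenestrated vessels among them (0.71 ± 0.08).

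Actin, tubulin and keratin genes had 22 of 31 higher and 0 lower (median 0.58). Krt23, a keratin of injured hepatocytes, had 12.21, 12.19 and 11.96 on HFD arrays against 10.19, 9.36 and 10.05 on ND arrays (2.25 ± 0.19). Krt8, the keratin all hepatocytes carry, had 13.27, 13.33 and 13.28 on HFD arrays against 11.99, 12.08 and 12.05 on ND arrays (1.25 ± 0.06, adjusted p = 3.74e-06). Arrays of a diet lay close together in Krt8. The tropomyosin Tpm2 (2.0 ± 0.16), the tubulin Tubb6 (1.89 ± 0.20) and the actin-capping Capg (1.41 ± 0.14) were higher, while Acta2, the smooth muscle actin of activated stellate cells, gave 1.24 ± 0.24 by its main probe and 0.17, 0.94 and 0.00 by the others. Of the biliary markers, Krt7, Krt19, Tff2 and Prom1 were not detected, and 0 of 2 measured cholangiocyte markers were higher. Mesothelial markers other than Krt8, namely Msln, Upk3b, Upk1b, Lrrn4, Krt19 and Gpm6a, were not detected.

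Annexins and S100 proteins had 10 of 15 higher and 0 lower (median 0.47), and among the 11 detected on all 9 arrays at detection p under 0.01, 6 were higher and 0 lower. S100a8 and S100a9 were detected on no ND array. Anxa2, a membrane scaffold that binds calcium, had 13.18, 13.55 and 13.05 on HFD arrays against 10.78, 10.27 and 11.21 on ND arrays (2.51 ± 0.23, other probe 1.51). S100a11 rose by 1.61 ± 0.16 and Anxa5, which binds exposed phosphatidylserine, by 1.01 ± 0.14. The TNF ligand and receptor superfamily and its regulators had 10 of 21 higher and 2 lower (median 0.34), and 5 of 12 higher and 1 lower among those detected on all 9 arrays at detection p under 0.01. Tnfrsf19, Tnfaip3, Tnfaip8 and Relb were detected on no ND array. Tnfrsf19, a receptor also known as TROY, had 7.83, 7.29 and 7.21 on HFD arrays against 5.65, 5.44 and 5.76 on ND arrays and was at least 2.74-fold higher. Tnfaip3, the A20 protein that ends NF-kappaB signalling, was at least 1.40-fold higher and the inhibitor Nfkbie rose by 0.84 ± 0.11. Lysosomal genes had 16 of 46 higher and 5 lower (median 0.11). Cd63 (1.28 ± 0.30, other probes 0.74 and 0.84) and the phospholipase Pla2g15 (0.80 ± 0.12) were higher. Ctsa was lower by its main probe (-0.53 ± 0.12, other probes -0.33, -0.01 and -0.16).

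Cell cycle genes had 16 of 25 measured higher and 2 lower (median 0.72). Ccnd1, the cyclin of entry into the cycle, had 11.30, 11.37 and 11.27 on HFD arrays against 9.51, 9.29 and 10.17 on ND arrays (1.65 ± 0.20, other probe 1.64). Prc1, which bundles the microtubules of the dividing spindle, had 7.96, 8.25 and 7.79 on HFD arrays against 6.41, 5.72 and 5.95 on ND arrays (1.97 ± 0.22). Cdc20, an activator of the anaphase-promoting complex, was at least 2.39-fold higher by its main probe, while its other probe gave a smaller difference of 0.90. HFD arrays were above ND arrays throughout in all of these genes. The replication licensing factor Mcm5 (1.17 ± 0.15) and the transcription factor E2f1 (1.44 ± 0.18) rose. Some members, among them Cdc20 and Cdkn3, were detected on no ND array and so passed the filter through HFD or LU arrays. Among the 10 detected on all 9 liver arrays at detection p under 0.01, 3 were higher and 2 lower, with a median of 0.02.

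The p53 targets and cell death genes had 12 of 28 higher and 3 lower (median 0.21). The growth arrest genes of the Gadd45 family split. Gadd45a had 8.86, 9.32 and 9.03 on HFD arrays against 7.52, 7.52 and 7.76 on ND arrays (1.47 ± 0.18, other probe 1.22). Gadd45b had 6.42, 6.66 and 7.20 on HFD arrays against 7.53, 8.53 and 8.02 on ND arrays (-1.26 ± 0.25), and Gadd45g was also lower (-0.97 ± 0.24, other probe -1.13). Arrays overlapped in none of the 3 genes, and the signs were the same under every alternative scaling. Mlkl, the executor of necroptosis (0.73 ± 0.10), and the inflammatory caspase Casp4 (0.81 ± 0.18) were higher. Immediate early genes and MAPK feedback had 10 of 30 higher and 2 lower (median 0.38). Atf3, a stress-induced factor (1.62 ± 0.26, detected on 1 ND array), Klf6 (1.02 ± 0.11) and the phosphatase Dusp4 (0.84 ± 0.11, other probes 0.42 and 0.36) were higher. Fkbp5, induced by glucocorticoids, was lower (-0.93 ± 0.18).

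Fetal liver and injury genes had 13 of 19 measured higher and 2 lower (median 0.67). Of these, Sdcbp2, Ntrk2, Tmem45b and Ly6d are also among the 15 largest rises. The list was chosen with earlier results of these data known, so its count is no independent support. The carbonyl reductase Cbr3 was higher too, with 7.77, 8.28 and 7.78 on HFD arrays against 6.66, 6.49 and 6.36 on ND arrays (1.44 ± 0.15). Afp, H19 and Gpc3, the classical fetal liver transcripts, were not measured by a detected probe. Among the 9 list members detected on all 9 liver arrays at detection p under 0.01, 6 were higher and 1 lower.

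Genes used at the opposite ends of the lobule were counted separately. Pericentral genes had 14 of 24 measured higher and 0 lower (median 0.36), and periportal genes 2 of 24 higher and 8 lower (median -0.10). Lgr5, the Wnt-amplifying receptor of pericentral hepatocytes, had 7.69, 7.45 and 7.28 on HFD arrays against 6.94, 6.44 and 6.63 on ND arrays (0.80 ± 0.13). The Wnt feedback genes Nkd1 (0.95 ± 0.10) and Sp5 (1.16 ± 0.25) were higher, as was glutamine synthetase, Glul, which marks the last pericentral cells (0.62 ± 0.09). The Glul probe was near the detection level, at 6.28 to 6.31 on ND arrays, where the lowest detected signals were 5.97 to 6.03. Under other settings its difference went down to 0.28, that of Lgr5 to 0.41 and that of Nkd1 to 0.49. The dicarboxylate carrier Slc13a3 of this zone had 8.63, 8.69 and 8.39 on HFD arrays against 7.04, 7.26 and 7.33 on ND arrays (1.36 ± 0.10, other probe 1.73). The pericentral cytochromes Cyp2e1 (0.05 ± 0.06) and Cyp1a2 (0.23 ± 0.11), named after their values were seen, did not pass. Among the 16 pericentral genes detected on all 9 arrays at detection p under 0.01, 6 were higher and 0 lower.

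Periportal genes that were lower included Agxt, which detoxifies glyoxylate, at 12.58, 12.39 and 12.48 on HFD arrays against 13.29, 13.09 and 12.93 on ND arrays (-0.62 ± 0.12). The sulfotransferase Sult5a1 (-0.86 ± 0.13) and apolipoprotein Apoa4 (-0.82 ± 0.18) fell too. Hsd17b6, an androgen-metabolising dehydrogenase, went against the rest of its list, with 8.26, 8.01 and 8.22 on HFD arrays against 6.84, 6.6 and 7.18 on ND arrays (1.29 ± 0.15), and so did Aldh1b1 (1.07 ± 0.13). Serpina1e, a form of alpha-1 antitrypsin, had 13.66, 12.67 and 14.19 on HFD arrays against 14.83, 15.68 and 14.89 on ND arrays (-1.62 ± 0.50, adjusted p = 0.0367). HFD array 2 was the lowest and ND array 2 the highest, and the call was lost without any ND array or HFD array 1 or 2, among other settings (adjusted p up to 0.121). The number lower was 4 without HFD array 2 and 5 without HFD array 1, ND array 1 or ND array 2, and 5 with a replicate block or no detection filter.

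**Figure D4:**
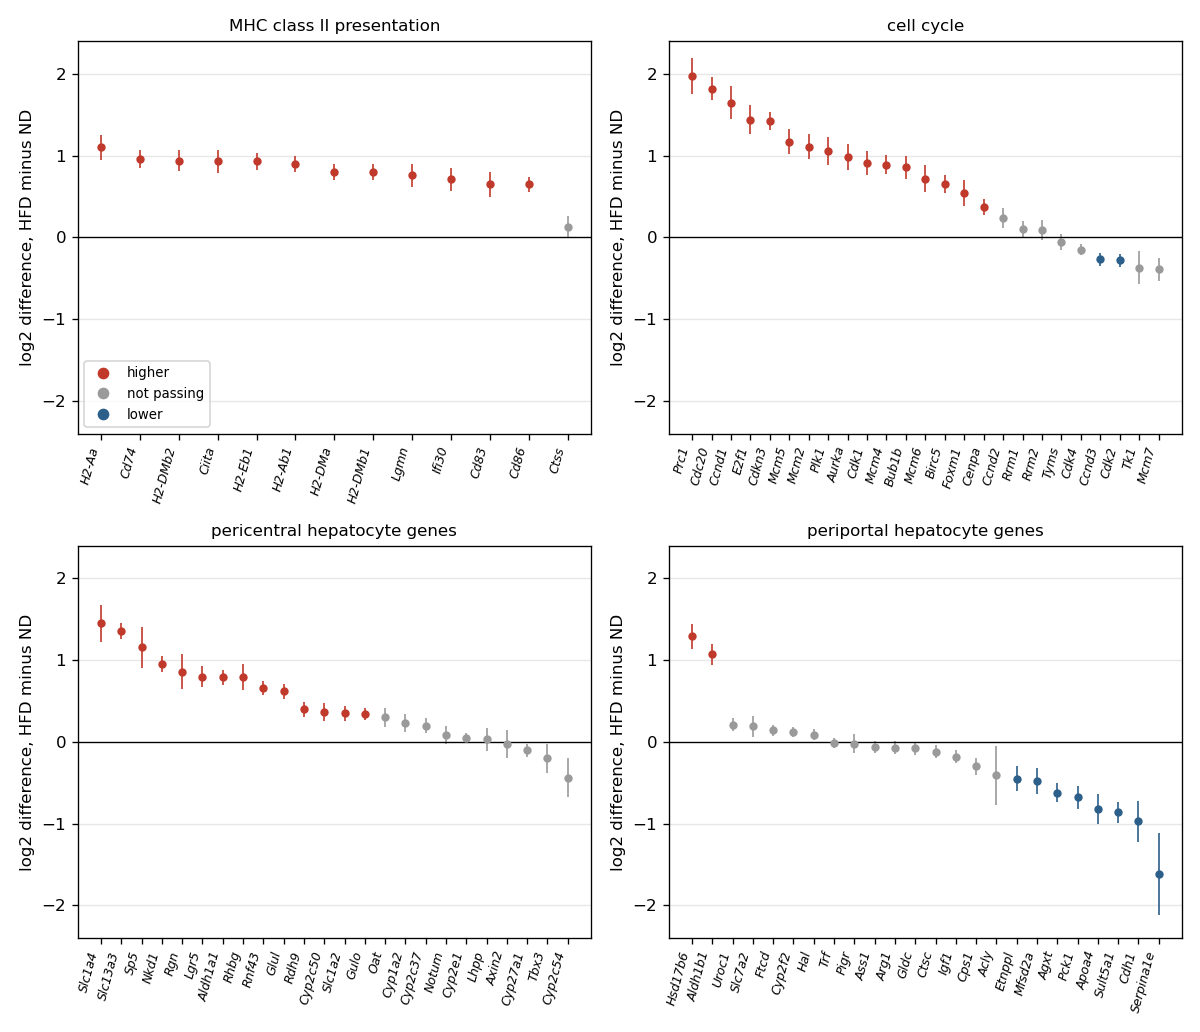
Log2 difference (HFD minus ND) with its SE for every measured member of 4 gene lists, sorted from highest to lowest, red where higher, blue where lower and grey where the test was not passed. MHC class II genes lie close to each other near 0.80, cell cycle and pericentral genes fall off gradually, and periportal genes reach down to Serpina1e at -1.62.

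The hormones that the liver secretes included more calls in the lower than in the higher direction. Of 20 secreted hormones measured 2 were higher and 6 lower (median -0.12). Over all genes tested, 17.9% were higher and 12.4% lower. Fst, the activin antagonist follistatin, had 6.15, 6.43 and 6.40 on HFD arrays against 7.82, 7.52 and 8.27 on ND arrays (-1.54 ± 0.17). Fgf21, the fasting hormone, had 10.10, 10.55 and 10.55 on HFD arrays against 11.48, 11.81 and 12.03 on ND arrays (-1.37 ± 0.22). The activin subunits Inhba (-0.84 ± 0.17) and Inhbc (-0.67 ± 0.10) and the lipase inhibitor Angptl4 (-0.57 ± 0.12) were lower as well. In the growth hormone and IGF axis 3 of 18 were higher and 5 lower (median -0.11), with 2 lower without ND array 2, HFD array 1 or HFD array 2 and 3 without ND array 1, ND array 3 or LU array 2. The number lower was also 2 in the fit of the 6 HFD and ND arrays alone, and 3 with the replicate block or no detection filter. The insulin receptor substrate Irs2 was lower, with 8.37, 8.89 and 8.75 on HFD arrays against 9.87, 10.49 and 10.30 on ND arrays (-1.55 ± 0.18), and the IGF-binding protein Igfbp3 was higher (0.76 ± 0.15, other probe 0.92).

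Apolipoproteins and lipoprotein assembly had 0 of 15 higher and 5 lower (median -0.21). Apom, which carries sphingosine 1-phosphate on HDL, had 13.56, 13.46 and 13.69 on HFD arrays against 14.48, 14.66 and 14.54 on ND arrays (-0.99 ± 0.12, other probe -1.16), and Apoa5, which activates lipoprotein lipase, was lower too (-0.68 ± 0.11). Glycogen genes had 6 of 15 higher and 3 lower (median 0.23), and 3 of 10 higher and 2 lower among those detected on all 9 arrays at detection p under 0.01. Opposite to Ppp1r3g, the enzyme Ugp2, which makes UDP-glucose, was higher at 12.22, 12.21 and 12.15 on HFD arrays against 11.48, 11.64 and 11.54 on ND arrays (0.64 ± 0.07). Glycolysis and pentose phosphate genes had 4 of 21 higher and 2 lower (median 0.05, and -0.04 with the authors' values), near the 17.9% and 12.4% over all genes tested. The isozymes split, since Aldoc had 6.56, 6.90 and 6.86 on HFD arrays against 8.16, 8.20 and 8.29 on ND arrays (-1.44 ± 0.12) while Pkm, the pyruvate kinase of dividing cells and leukocytes, was higher (0.88 ± 0.15), as was the hexokinase Hk3 of myeloid cells (0.62 ± 0.08).

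Conjugation and transport genes changed member by member, and their counts stand beside 17.9% higher and 12.4% lower over all genes tested. Glutathione transferases had 7 of 19 higher and 1 lower (median 0.14), with Gstm2 (1.19 ± 0.18, other probes 1.28 and 1.24) and Gsta4 (0.86 ± 0.13), which clears lipid peroxidation products, beside the alpha class. Glucuronosyltransferases, sulfotransferases and carboxylesterases had 5 of 25 higher, or 3 without HFD array 1 or 2, and 5 lower (median 0.00), the lower ones including Ugt1a9 (-0.92 ± 0.10) and Ces3b (-0.83 ± 0.14). Abcc4, a pump that moves bile acids back to blood, had 8.29, 8.5 and 8.33 on HFD arrays against 6.55, 7.04 and 7.01 on ND arrays (1.51 ± 0.13), and Abcc3, which does the same, was higher (0.83 ± 0.07). The bile acid importer Slc10a1 was lower, with 6.73, 6.42 and 6.64 on HFD arrays against 7.30, 7.19 and 7.14 on ND arrays (-0.61 ± 0.12), as was the prostaglandin transporter Slco2a1 (-1.07 ± 0.13, other probes -1.33 and -1.22). The Slc10a1 levels on HFD arrays were not far above the lowest detected signals there, 5.81 to 5.86. Under other settings the Slc10a1 difference shrank to as little as -0.30. In all, 5 of 17 transporters were higher and 3 lower (median 0.18), with 3 higher without ND array 1, HFD array 1, HFD array 3, LU array 1 or LU array 2, in the fit of 6 arrays, with the replicate block, with all probes or with no detection filter, and 8 with trend and robust estimation of the spread. Retinoid genes had 8 of 21 higher and 5 lower (median 0.19), with 5 higher without ND array 2 or HFD array 2. The retinaldehyde dehydrogenase Aldh1a1 was higher (0.79 ± 0.09), and Bco1, which splits beta-carotene, was detected on no HFD array and was at least 1.45-fold lower.

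The counts that follow stand beside 17.9% higher and 12.4% lower over all genes tested. Proteasome, mitochondrial ribosomal, urea cycle and amino acid, and iron and haem genes exceeded neither share. Of 30 proteasome subunits 0 were higher and 1 lower, Psmd9 (-1.04 ± 0.16, other probe -0.61), which is an assembly chaperone. Of 67 mitochondrial ribosomal proteins 1 was higher and 7 lower (median -0.06), with 2 lower without HFD array 1 or 2 or under median scaling, 3 without ND array 3 or HFD array 3 or in the fit of 6 arrays, and 4 without ND array 2, with the replicate block or with no detection filter. It was 11 with trend and robust estimation of the spread. Of 50 cytosolic ribosomal proteins 0 were higher and 9 lower (median -0.13), a count that went to 2 without ND array 2 or HFD array 1, 3 without HFD array 2 and 4 without HFD array 3, and to 5 in the fit of 6 arrays or with no detection filter. It was 18 without background correction or with trend and robust estimation and 17 with the authors' values. Methionine and one-carbon genes had 0 of 20 higher and 5 lower (median -0.06), with 3 lower without ND array 1 or HFD array 2. Csad, which makes the taurine precursor hypotaurine, was lower at 11.30, 11.41 and 11.47 on HFD arrays against 11.97, 12.42 and 12.43 on ND arrays (-0.88 ± 0.17), as was the cystathionine synthase Cbs (-0.58 ± 0.08). Urea cycle and amino acid genes had 5 of 35 higher and 4 lower, with Asl of the urea cycle lower (-0.71 ± 0.16, other probe -0.74), and with 3 higher without HFD array 1, 8 without background correction and 9 with trend and robust estimation. Their median was 0.05 and fell below that of all genes under median scaling. Coagulation genes had 3 of 27 higher and 7 lower (median -0.03). Autophagy genes had 1 of 27 higher and 5 lower (median -0.13), with the kinase Ulk1 lower (-0.39 ± 0.07), and 3 lower under median scaling. Nuclear receptors and coactivators had 1 of 22 higher and 6 lower (median -0.06), and the number lower was 1 without HFD array 2 or under median scaling, 2 without ND array 3 or HFD array 3 or in the fit of 6 arrays, and 3 without ND array 2, HFD array 1 or LU array 2 or with no detection filter. The coactivator Ppargc1a was lower in all settings (-0.80 ± 0.18). Phospholipid synthesis had 0 of 11 higher and 4 lower, none of which kept its call without ND array 3 or HFD array 2, while 1 was lower without HFD array 3 or under median scaling and 2 without ND array 2, HFD array 1 or LU array 1, in the fit of 6 arrays or with no detection filter. Iron and haem genes had 5 of 29 higher and 2 lower, with 2 higher without ND array 1 or HFD array 1 or with the replicate block and 3 without HFD array 2 or 3.

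Some genes varied as much between arrays of a diet as between diets. The median SD over 3 arrays was 0.097 in HFD and 0.116 in ND, with 3793 genes more variable in HFD and 5144 in ND. Hsd3b5, a male-biased steroid dehydrogenase, had the largest SD over HFD arrays, with 9.25, 6.00 and 10.68 on HFD arrays and 11.85, 11.53 and 11.84 on ND arrays. HFD array 2 was far below the others, and although no HFD array reached an ND array the difference of -3.10 ± 1.12 did not pass (adjusted p = 0.0634). The same array was the lowest of HFD in Cish, a target of growth hormone signalling, with 10.03, 8.52 and 10.38 on HFD arrays and 11.26, 10.84 and 9.91 on ND arrays, and in the clock gene Per1. Thrsp, a driver of lipogenesis, had 9.96, 10.17 and 10.57 on HFD arrays and 8.39, 7.91 and 10.50 on ND arrays (adjusted p = 0.107), and Acly, which makes cytosolic acetyl-CoA, had 12.62, 12.65 and 12.65 on HFD arrays and 12.52, 12.50 and 14.14 on ND arrays. Array 3 of ND was the highest of its diet in Thrsp, Acly and Fdps, which were among the genes chosen for their spread over ND arrays, and in Sqle and Cyp51. Bcl6, a repressor involved in sex-biased liver expression, had 10.88, 11.33 and 11.29 on HFD arrays and 8.89, 11.12 and 11.09 on ND arrays, where array 1 was the low one.

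The diet difference in liver was set against that in epididymal fat of the same study, in an 18-array fit of 8181 genes detected in both tissues, where 2842 genes (34.7%) differed between tissues. Of the 30 genes with the largest changes in liver, 16 were detected in both tissues and 14 differed. Since these genes were chosen for their size in liver, a smaller value in fat follows in part from the choice. Cidea, at least 35.1-fold higher in liver by the liver arrays alone, differed by -1.34 ± 0.23 in fat, where it is a normal droplet protein, so its signs were opposite. Gpnmb was higher in both tissues, by 5.51 in liver and 3.91 ± 0.23 in fat, and its tissue difference (1.60 ± 0.32) fell to 0.11 without background correction (adjusted p = 0.771). Mmp13 also rose in both, by 3.10 in liver and 1.85 ± 0.28 in fat, and its tissue difference of 1.24 ± 0.40 (adjusted p = 0.0237) lost its call under cyclic loess and without ND liver array 1 or 3, HFD liver array 2, ND fat array 1 or HFD fat array 3 (adjusted p = 0.0503 to 0.088). The sterol genes Sqle, Fdps and Cyp51 were lower in liver by -2.93, -1.95 and -1.68, and in fat they differed by 0.47, 0.76 and 0.37, none of which passed there. Pdk4 differed by -1.92 in liver and 0.39 ± 0.16 in fat. Acacb was lower in both, by -1.72 in liver and -1.52 ± 0.22 in fat, and for it the difference between tissues was not called (-0.20 ± 0.31, adjusted p = 0.656).

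**Figure D5:**
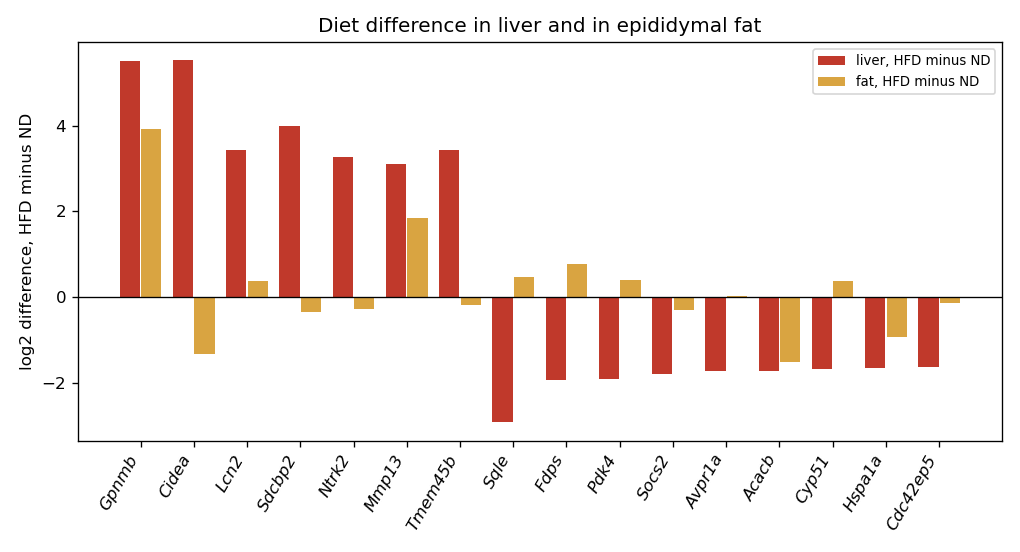
Log2 difference between HFD and ND in liver (left bar of each pair) and in epididymal fat (right bar) for the 16 genes with the largest changes in liver that were detected in both tissues, from 1 fit of 18 arrays. The liver bars of Cidea, Sdcbp2 and Tmem45b are measured against ND signals that were not detected, so their heights are not exact sizes. Gpnmb and Mmp13 were higher in both tissues, Acacb was lower in both and Cidea has bars of opposite sign.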

How the data were processed

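Per the labels' protocols, biotinylated cRNA was made from total RNA for each array. GenomeStudio 2009.2 and R 2.4.1 are named in the submitters' processing notes. Per the file headers, the deposited liver table gives every probe a signal intensity (an average over its beads) and a detection p-value per array. The authors' normalized values are on a log2 scale, with medians of 7.88 to 7.89 per liver array and a correlation of at least 0.9996 with log2 of the deposited signal, and their normalization method is not given in the sources used here. They served as an alternative.

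The deposited signals of the 9 liver arrays were background corrected from the detection p-values, quantile normalized and turned to log2 with neqc of limma 3.58.1 (offset 16) in R 4.3.3. Of 45281 probes 16262 were detected on all 3 arrays of at least 1 diet, and 13086 of these had a gene name in GEO's platform annotation, where 22883 probes have 1 gene and 13 have several. The probe with the highest mean stood for each gene. A limma model with empirical Bayes moderation was fitted to the 9 arrays, with p-values adjusted by the Benjamini-Hochberg method. The tissue comparison used 18 arrays normalized together and treated as independent. Whether same-numbered liver and fat arrays came from the same mouse was not examined. A gene detected on no array of a diet was given as a bound. No arrays held identical values. Precision is limited by the number of arrays.

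Genes named are the 15 largest rises and 15 largest decreases among called genes with no overlap of arrays, up to 6 called members of each list, the sterol synthesis genes measured, and the 8 most variable genes per diet. The members and lists were chosen with earlier results of these data known, so no list is independent support. Unless stated, every called gene that the text names kept its liver call in every alternative. Some genes that the rule names are not in the text, and lost calls among all of them are counted at the end.

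Alternatives changed background correction, normalization, source of values, detection filter, probes, moderation, arrays in the fit, a replicate block and single arrays. Deviations of same-numbered HFD and ND arrays correlated at 0.19, -0.03 and -0.02, and those of differently numbered arrays at -0.17 to 0.19. These values showed no pairing by replicate number, but with 3 arrays per diet they cannot exclude it.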

Additional observations from a re-analysis of the deposited data

Results flagged for a closer look

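Of the 30 largest changes in liver, 16 were detected in both tissues and tested. For 14 of these, the HFD minus ND difference was not the same in liver and in epididymal fat by the interaction test of limma over 18 arrays. Gpnmb and Mmp13 lost this call in some alternatives, as given above. Positive values mean a difference more positive in liver than in fat, whether or not the gene rose in fat. They were 6.86 for Cidea, 4.33 for Sdcbp2, 3.60 for Tmem45b, 3.55 for Ntrk2, 3.05 for Lcn2, 1.60 for Gpnmb and 1.24 for Mmp13. Negative values mean a difference more negative in liver than in fat, whether or not the gene fell in fat. They were -3.40 for Sqle, -2.72 for Fdps, -2.31 for Pdk4, -2.05 for Cyp51, -1.75 for Avpr1a, -1.48 for Socs2 and -1.48 for Cdc42ep5. No ND liver array detected Cidea, Sdcbp2 or Tmem45b, so their values are measured against background signal and are not exact sizes, and only 1 detected Ntrk2, Gpnmb and Mmp13. All 14 were chosen for their size in liver.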

How the results depend on the processing

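Under other settings the genes that were higher in HFD liver numbered 1179 to 2283 and those lower 547 to 1240, against 1599 and 1105, and counted over all 13086 detected probes, several per gene, 2000 probes were higher and 1622 lower. The number lower fell to 547 under median scaling, where 80.7% of calls were higher against 59.1%, and to 695 without HFD array 2. Leaving out each array in turn gave 1179 to 1533 higher, 695 to 1045 lower, and 2397 to 2801 genes with a tissue difference against 2842. The main fit did not pair arrays by replicate number, and a replicate block gave 1433 genes higher and 911 lower. Of 289 called genes named by the rule 228 kept the call in every alternative that tested them (at most 19), 61 lost it in at least 1 and 0 reversed. Genes that had not passed changed sign without single arrays, namely Xlr4a (-0.02 without HFD array 1, range -0.02 to 0.69), Nktr (-0.18 without ND array 1, -0.06 without HFD array 3, range -0.18 to 0.54), Rapgef6 (0.09 without HFD array 2, range -0.48 to 0.09), Sdf2l1 (0.28, range -0.77 to 0.28) and Acly (0.13, range -0.69 to 0.13), both without ND array 3. So did the tissue difference of Acacb (0.04 without ND liver array 3, 0.01 without ND fat array 1, range -0.39 to 0.04). The cause was not tested. Probes near background limit the smallest levels, and 138 higher genes were detected on all 3 HFD arrays and no ND array, without counting those detected on fewer HFD arrays.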
